A study of Homo sapiens with 2 samples.

Results

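The peaks described here lie at an end of a protein-coding gene that also has a noncoding gene ending beside it. They were chosen by position alone, from 1 deposited list of ERG peaks: the summit had to be within 1 kb of an end of exactly 1 protein-coding gene and also within 1 kb of an end of at least 1 gene of another biotype. The list has 1645 peaks, 1564 of them on the autosomes or chromosome X, and 220 of those 1564 (14.1%) met this rule. The cells were F36P, a human erythroleukaemia line, carrying either the retroviral vector MSCV-PIG with ERG joined to an AM tag (AM-ERG, labelled ERG overexpression) or MSCV-PIG alone (Vector, labelled WT). Both groups were under puromycin at 1 µg/ml for 4 days, with the immunoprecipitation aimed at the tag in either case. The labels give 1 library per group, so no value has a replicate error. No test between AM-ERG and Vector, or between kinds of peak, was made, and no separate peak list of Vector cells was used here. The tagged ERG of the AM-ERG cells was an added copy expressed from a retrovirus, and Vector cells carried no such copy. All cells were of 1 line.

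ERG is a transcription factor of the ETS family, whose members bind short DNA sites built around GGAA, often in the longer form CCGGAAGT. Many human promoters are transcribed in both directions: a messenger RNA starts on one strand and a noncoding RNA starts close by on the other. A noncoding gene named after its coding neighbour with the ending -DT (divergent transcript) starts next to it and runs away from it, while the ending -AS (antisense) marks a noncoding gene on the opposite strand of the gene it is named after. Such promoters are often rich in CpG dinucleotides and active in many cell types.

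DNA at the summits is shown for the 10 peaks of highest fold enrichment among those whose summit fell inside the 300 bp promoter sequence of the coding gene (250 bp before its start to 50 bp after), so that the letters under the strongest of these summits can be read. The sequences are RefSeq's, with coordinates on GRCh38.p14 (hg38). Each is written 5′ to 3′ on the strand of the coding gene and reaches up to 60 bp to either side of the summit, as far as the promoter sequence goes. Capitals mark the ETS 6-mer CCGGAA or its reverse complement TTCCGG.
MYL12B, chr18:3261913-3262033, plus strand: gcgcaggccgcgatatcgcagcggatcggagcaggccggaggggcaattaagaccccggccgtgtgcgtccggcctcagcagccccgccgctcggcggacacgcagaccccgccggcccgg
FKBP1A, chr20:1393156-1393276, minus strand: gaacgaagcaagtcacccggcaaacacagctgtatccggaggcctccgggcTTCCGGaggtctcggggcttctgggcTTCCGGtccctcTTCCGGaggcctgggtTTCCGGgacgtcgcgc
PLEKHG2, chr19:39412647-39412718, plus strand: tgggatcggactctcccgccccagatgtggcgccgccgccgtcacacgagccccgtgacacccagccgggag
BZW1, chr2:200811541-200811638, plus strand: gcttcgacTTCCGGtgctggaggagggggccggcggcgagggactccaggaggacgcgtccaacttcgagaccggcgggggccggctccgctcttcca
STXBP5, chr6:147204367-147204466, plus strand: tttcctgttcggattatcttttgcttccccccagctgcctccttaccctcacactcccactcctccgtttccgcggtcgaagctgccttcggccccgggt
WASL, chr7:123749127-123749247, minus strand: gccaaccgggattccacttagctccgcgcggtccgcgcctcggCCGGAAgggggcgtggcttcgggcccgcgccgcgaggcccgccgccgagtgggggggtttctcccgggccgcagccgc
ODAD1, chr19:48322058-48322178, minus strand: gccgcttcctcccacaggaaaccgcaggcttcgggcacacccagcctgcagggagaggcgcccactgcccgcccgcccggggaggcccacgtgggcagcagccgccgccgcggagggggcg
C11orf24, chr11:68272022-68272142, minus strand: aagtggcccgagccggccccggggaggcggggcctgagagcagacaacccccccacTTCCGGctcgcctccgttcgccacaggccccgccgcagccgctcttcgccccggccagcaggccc
SLC30A6, chr2:32165807-32165913, plus strand: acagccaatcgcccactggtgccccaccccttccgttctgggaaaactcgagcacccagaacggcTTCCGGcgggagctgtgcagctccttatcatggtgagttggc
SPCS3, chr4:176319945-176320015, plus strand: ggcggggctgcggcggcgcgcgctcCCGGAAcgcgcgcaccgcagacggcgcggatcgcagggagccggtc

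The 6-mer stood in 6 of these 10 stretches and not in the other 4, and its longer form CCGGAAGT stood in 2 of them, those of BZW1 and C11orf24. The stretch of FKBP1A, which encodes the immunophilin FKBP12, held 4 copies, the nearest 6 bp from the summit. In the stretch of MYL12B no copy was found, but its whole promoter sequence held 3, the nearest 109 bp from the summit. The stretch of PLEKHG2, cut to 72 bp by the end of the promoter sequence, also had none. Its whole promoter sequence held 1, 159 bp from the summit. STXBP5, which encodes the syntaxin-binding protein tomosyn, and ODAD1, which encodes a dynein docking factor of cilia, had none in the whole promoter sequence, and their peaks had fold enrichments of 9.66 and 8.32. These matches describe letters, and binding at them was not measured. The stretches differ in length, and no share expected by length was worked out.

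The fold enrichment of a peak is the authors' value at its summit over the local background of the same list. Across the 220 peaks its median was 4.93, with quartiles of 4.05 and 6.16 and a range of 2.28 to 15.7. Peaks at 1 coding gene end with no other gene end nearby (530 peaks) had a median of 4.89, and peaks shared by at least 2 coding gene ends (216) had 4.79. The 3 medians differ by less than the distance from either quartile to the median within any of these groups. By significance, 106 of the 220 (48.2%) were in the upper 50% of the 1564 peaks. Peaks beside a noncoding gene were broader, with a median width of 441 bp against 388 bp at 1 coding gene end only, where no test was made. Their local background, recovered as described under the processing, had a median of 3.06 fragments against 3.52, and the pileup at the summit 20 fragments against 21.

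Some of these peaks stood at the top of the list. Of the 20 highest folds among the 1564 peaks, 5 were beside a noncoding gene, and so were 24 of the highest 100. The 220 peaks are 14.1% of the 1564. Peaks at no coding gene end (598) held 6 of the highest 20 and 25 of the highest 100. The 24 are 10.9% of the 220 (95% Wilson interval 7.44 to 15.7%, counting error only), against 7.36% (5.43 to 9.90%) of the peaks at 1 coding gene end only and 5.56% (3.21 to 9.46%) of those at several coding ends. These 3 intervals overlap. At no coding gene end the share was 4.18% (2.85 to 6.1%), an interval that lies below that of the 220. No test was made.

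The 2 highest peaks were at genes of the actin and myosin cytoskeleton. CTTN, the gene of cortactin, a protein that stabilises actin branches, had a fold enrichment of 15.7 and a pileup of 54 fragments on a background of 2.51. Its summit, in the peak at chromosome 11, 70398308 to 70398957, was 169 bp inside the gene and 236 bp from the end of CTTN-DT. MYL12B, which encodes a regulatory light chain of non-muscle myosin, followed with a fold of 14.4 at chromosome 18, 3261625 to 3262181. Its pileup of 125 fragments was the highest of the 220, on a background of 7.74 fragments, above 2 times the median of all peaks (7.04). The summit of MYL12B lay 160 bp before the gene and inside MYL12-AS1, an antisense gene whose start was 386 bp away. WASL, which encodes N-WASP, an activator of actin branching, had a fold of 8.83 with its summit 8 bp from the start of WASL-DT and 184 bp before its own. ZYX, which encodes the focal adhesion protein zyxin, had 9.49, and CAP1, which encodes a protein that binds actin monomers, had 8.91.

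In the list of 33 actin and myosin genes, 5 had such a peak (15.2%): CTTN, MYL12B, ACTR2 with a fold of 5.97, ARPC2 with 5.42 and ACTR3 with 4.30. ACTR2, ARPC2 and ACTR3 encode subunits of the Arp2/3 complex, which starts actin branches. Among all 19974 protein-coding genes 1.08% had such a peak, and 5.86% had a summit within 1 kb of an end whatever lay beside it, as did 10 of the 33 listed genes. The list thus also stood above the share of all genes for ends of any kind. WASL, ZYX and CAP1 are not on that list. The list was made with earlier results of these data known and no test was made, so the count is a description. The median fold of the 5 was 5.97, against 4.98 over all 215 coding genes with such a peak.

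Other genes in the upper part of the ranking act in varied processes. FKBP1A had a fold of 12.9 (pileup 39), with 2 noncoding neighbours, the readthrough transcript FKBP1A-SDCBP2 and the microRNA gene MIR6869. CYTH2, which encodes an exchange factor for ARF GTPases, had 10.8. PLEKHG2, which encodes a guanine nucleotide exchange factor, had 11.2 with its summit 38 bp inside the gene and 447 bp from the transfer RNA gene TRI-TAT1-1. Its pileup of 81 fragments stood on a background of 6.34. WAC, which encodes an adaptor protein of histone H2B ubiquitination, had 10.3 beside WAC-AS1, and TRMT1, which encodes a tRNA methyltransferase, had 10.1. A fold of 10 or more was reached by 8 of the 220 peaks (3.64%, 1.85 to 7.01%), CTTN and MYL12B among them. It was reached by 1.89% (1.03 to 3.44%) of peaks at 1 coding gene end only and 2.31% (0.993 to 5.3%) at several coding ends. At no coding gene end the share was 1.84% (1.03 to 3.26%). These intervals overlap, and no test was made.

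Further genes had folds just below 10. BZW1, a translation regulator, had 9.84, GLYCTK, glycerate kinase, had 9.81 and DDX59, an RNA helicase, had 9.74. ANKRD12, which encodes an ankyrin repeat protein, had 9.70 beside NDUFV2-AS1. CFLAR, which encodes the caspase-8 inhibitor c-FLIP, had 9.38 with its summit 746 bp inside the annotated gene and 226 bp from LOC105373836. The start used for its promoter sequence, at chromosome 2, 201118716, lies downstream of that summit at 201116910. TRAM2, which encodes a membrane protein of the endoplasmic reticulum translocation site, had 8.91 beside TRAM2-AS1. ZBTB37, a zinc finger gene, had 8.63, with its summit 364 bp inside the gene, 599 bp from the start of GAS5. GAS5 is a noncoding gene that hosts small nucleolar RNAs, and the end of SNORD74, one of them, also lay within 1 kb.

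Ranked by significance, 10 further genes stood out. ASB1 (fold 8.27), CYP4V2 (6.46), ENDOV (7.43), SLC35H1 (8.41), GDI2 (7.74), DPY19L3 (6.75) and P4HB (6.70) were among them, besides ODAD1, C11orf24 (7.96) and SPCS3 (7.04), whose sequences are given above. CYP4V2, which encodes a fatty acid hydroxylase, combined a pileup of 60 fragments with a background of 8.45. ENDOV, which encodes endonuclease V, and RNF213-AS1 had starts 1 bp apart, and the summit was 209 bp inside the coding gene. P4HB encodes protein disulfide isomerase and SPCS3 a signal peptidase subunit, both of the endoplasmic reticulum. The P4HB summit was 9 bp from the end of LOC124904086 and 566 bp from its own gene.

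**Figure D1:**
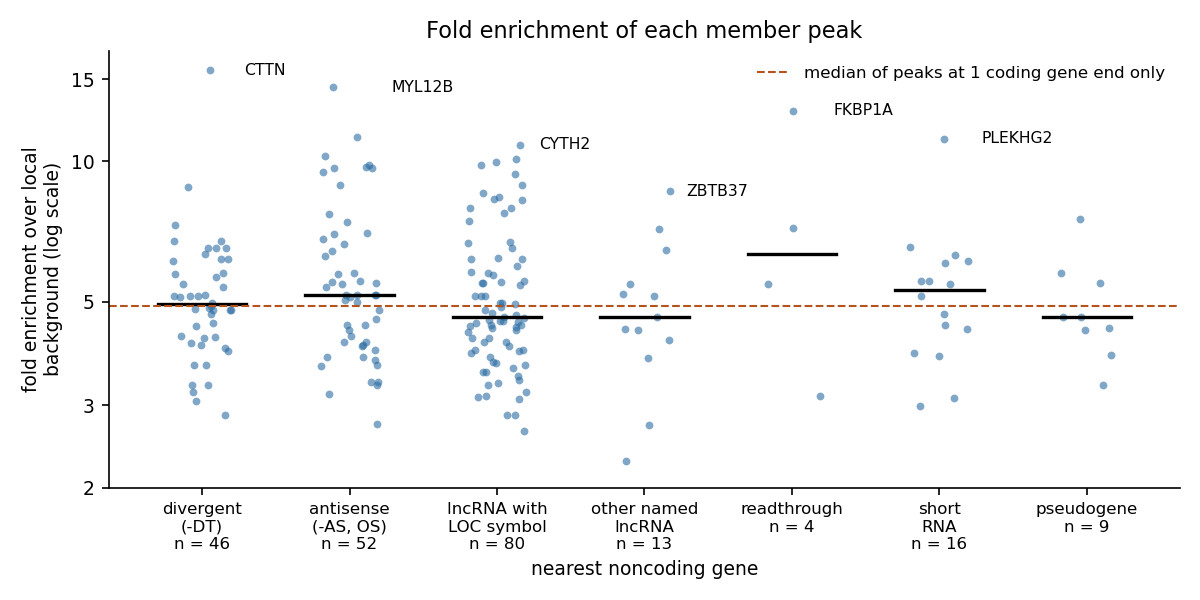
Fold enrichment over local background of each of the 220 peaks (points, log axis), by the kind of their nearest noncoding gene; horizontal bars are medians, and the dashed line is the median of 4.89 at peaks with 1 coding gene end only. The medians of the 3 largest groups lie between 4.63 and 5.17, and single peaks such as CTTN at 15.7 stand far above them.

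The noncoding neighbours were mostly long noncoding RNA genes. The nearest one had a provisional LOC symbol in 80 of the 220, an antisense name in 52 (23.6%) and a -DT name in 46, and 47 peaks (21.4%, 16.5 to 27.2%) had a divergent transcript among all their neighbours. The nearest neighbour was a microRNA gene in 14, another named long noncoding RNA in 13, a pseudogene in 9, a readthrough transcript in 4, a transfer RNA gene in 1 and a small nucleolar RNA gene in 1. Long noncoding RNA genes also lead in the annotation itself. Among 1622 coding starts beside an opposite noncoding start, with or without a summit, the nearest was a LOC gene in 750. It was a divergent transcript in 386, an antisense gene in 370, another named long noncoding RNA in 90 and a microRNA gene in 25. The 220 peaks include other arrangements too, so these counts are not over like sets. In 203 peaks there was 1 noncoding neighbour, in 15 there were 2 and in 2 there were 3. The noncoding symbol was built on that of the coding gene in 91 of the 220 (41.4%). Median fold enrichment was 4.94 beside divergent transcripts (2.86 to 15.7, n = 46), 5.17 beside antisense genes (2.74 to 14.4, n = 52) and 4.63 beside LOC genes (2.65 to 10.8, n = 80). These ranges overlap over most of their length.

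The 220 peaks marked 215 different coding genes, since AZIN1, BZW1, GSK3B, ZFAND3 and ZNF407 had 2 each. GSK3B, which encodes glycogen synthase kinase 3 beta, and GSK3B-DT start 657 bp apart and had 1 peak in each gene. The peak in GSK3B-DT, 267 bp from its start, had a fold of 6.11, and the one 168 bp inside GSK3B had 4.22. BZW1 and BZW1-AS1 overlap by 581 bp, and both peaks sat in the overlap, 12 bp after the start of BZW1 (fold 9.84) and 26 bp after that of BZW1-AS1 (fold 4.02). ZNF407 had a fold of 3.82 at a summit 33 bp inside the gene and 4.05 at one 449 bp before it. For these pairs the neighbouring peaks came from the same chromatin and are not separate replicates.

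Strand was matched through the RefSeq promoter and microRNA sequences at 182 of the 220 peaks for the coding gene. In 178 of them (97.8%, 94.5 to 99.1%) the end near the summit was the start of the gene. For 165 peaks both genes could be matched, and in 144 (87.3%, 81.3 to 91.5%) the coding and the noncoding gene started side by side on opposite strands. Among all 3418 annotated pairs of a coding and a noncoding end within 2 kb of each other with matched strands, 57.1% (55.4 to 58.8%) had this arrangement. Those pairs include coding stops, such as stop to stop on opposite strands (10.0%), while the peaks were nearly all at coding starts. The shares of 87.3% and 57.1% are therefore not over like sets, and part of their gap restates that the peaks were at starts. The other 21 peaks were split between starts on the same strand (8), a coding start beside a noncoding stop on the opposite strand (5) or on the same strand (4), and a coding stop beside a noncoding start (4). TRMT1 and BACC1 were among the coding stops. Each gene was placed by its end nearest to the summit. A noncoding gene could therefore count by its stop although its start was also close to the coding start, as YAP1-DT did. No test of the difference was made, and pairs matched in strand may differ from the others.

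In 97 of the 144 opposite pairs the genes ran away from each other without overlapping, with starts a median of 164 bp apart (quartiles 108 and 312 bp). In the other 47 they overlapped, by a median of 400 bp. Divergent transcripts were apart from their coding gene in 34 of 37 pairs (91.9%), antisense genes in 18 of 41 (43.9%) and LOC genes in 37 of 54 (68.5%), where the names themselves describe the arrangement. MIF4GD-DT started 7 bp from MIF4GD, which encodes a partner of the histone stem-loop binding protein, and USP34-DT 9 bp from USP34, a deubiquitinase gene. CSGALNACT2-DT lay 52 bp from its neighbour, as did IKBKB-DT, whose neighbour encodes the NF-kappaB kinase IKK-beta. RRS1-DT was 37 bp from RRS1. For RRS1 and IKBKB the strands were not matched, so these are distances between ends. JARID2-DT started 695 bp from JARID2, which encodes a partner of Polycomb repressive complexes, and UBE2E3-DT, which overlaps UBE2E3, started 652 bp from it. The end of YAP1-DT nearest to the YAP1 summit, 620 bp from the coding start, was its stop and not its start. By the promoter sequences its start, at chromosome 11, 102110457, is beside that of YAP1 at 102110447. This pair thus ranks as far apart by the stop only. The fold enrichments of the peaks at those pairs and at GSK3B were 4.20 (USP34) to 6.75 (UBE2E3), with 6.52 at IKBKB, 5.11 at YAP1 and 4.82 at JARID2.

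**Figure D2:**
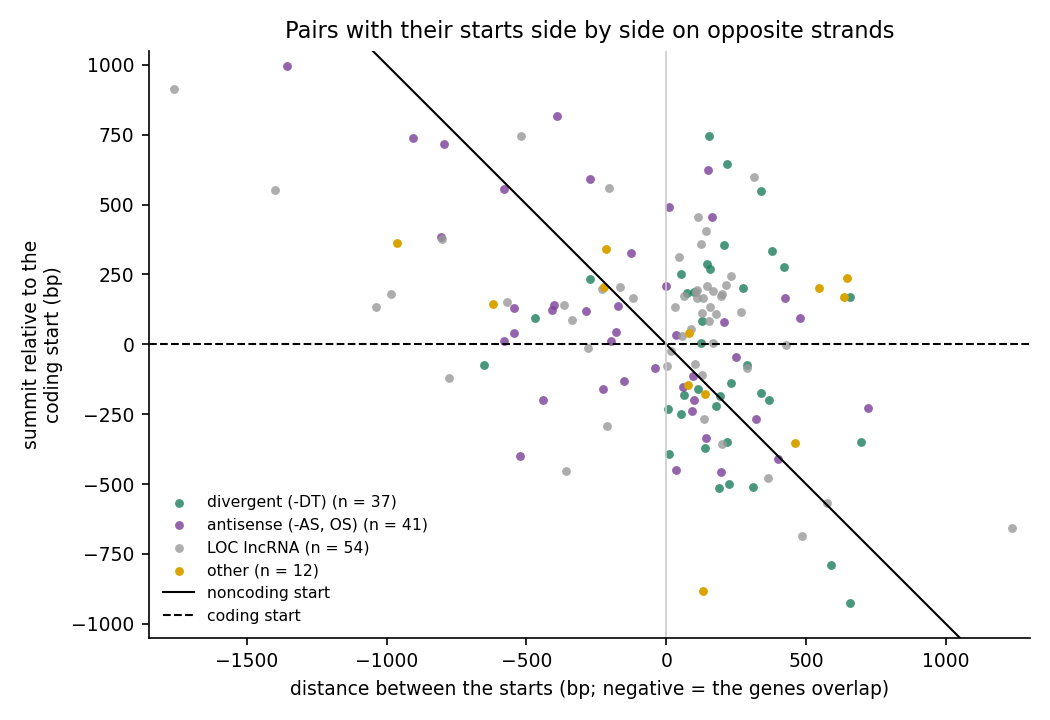
Position of the summit relative to the coding start (vertical axis, bp, positive inside the gene) against the distance between the coding and the noncoding start (horizontal axis, bp, negative where the genes overlap) for 144 pairs on opposite strands; points are peaks coloured by the kind of noncoding gene, the dashed line is the coding start and the diagonal the noncoding start. Among pairs whose starts are apart, 51 of 97 summits lie above the dashed line, 30 below the diagonal and 16 between the lines.

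Where the starts were apart, more of the summits were on the coding than on the noncoding side of them. The stretches on both sides were equal in length, and the stretch between the starts differed from them. In the 97 pairs that were apart, the summit was between the starts in 16 (16.5%, 10.4 to 25.1%), on the side of the coding gene in 51 (52.6%, 42.7 to 62.2%) and on that of the noncoding gene in 30 (30.9%, 22.6 to 40.7%). Per kb of sequence there were 1.88 summits (exact Poisson interval 1.11 to 2.96, counting error only) at 100 to 200 bp into the coding gene, 1.04 (0.50 to 1.92) at the same distance into the noncoding gene and 0.723 (0.413 to 1.17) between the starts. The first 100 bp held 1.04 per kb in either gene. At 200 to 400 bp the density was 0.745 per kb (0.407 to 1.25) in the coding gene, close to that between the starts, and 0.426 (0.184 to 0.839) in the noncoding gene. Beyond 400 bp the density was 0.245 per kb (0.112 to 0.465) in the coding gene and 0.0544 (0.00659 to 0.197) in the noncoding gene. Intervals of the first 3 values overlap. In the 47 overlapping pairs, 28 summits (59.6%) were between the starts, that is, in the stretch that both genes share. Examples of summits between starts that are apart were WASL, C11orf24 and JARID2, the last 348 bp from the coding start and 347 bp from that of JARID2-DT.

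Measured over all 220 peaks, the summit was nearer to the coding end in 119, to the noncoding end in 99 and equally far from both in 2. Its median distance was 210 bp from the coding end and 267 bp from the noncoding end. It lay inside the coding gene alone in 91, inside the noncoding gene alone in 57, in both in 40 and in neither in 32. Between the 2 ends lay 71 of the summits (32.3%, 26.4 to 38.7%). Beside LOC genes the coding start was the nearer in 38 of 54 opposite pairs (70.4%, 57.2 to 80.9%), beside divergent transcripts in 18 of 37 (48.6%, 33.4 to 64.1%) and beside antisense genes in 23 of 41 (56.1%, 41.0 to 70.1%).

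Positions around the coding start are given as a description, because the summit's position chose these peaks. A summit had to lie within 1 kb of the noncoding end too, which in pairs that run apart is upstream of the coding start, so the rule itself bears on the upstream share. Of 179 summits within 1 kb of a coding start with matched strand, the median was 99 bp downstream, and 38 (21.2%, 15.9 to 27.8%) fell 100 to 200 bp downstream, the fullest 100 bp step. At 1 coding gene end only (413 summits) the median was 132 bp and the same step held 25.7% (21.7 to 30.1%). Upstream by 100 bp or more lay 58 of the 179 (32.4%, 26.0 to 39.6%), against 89 of the 413 (21.5%, 17.9 to 25.8%). Any distance upstream lay 69 of the 179 (38.5%, 31.7 to 45.8%), against 122 of the 413 (29.5%, 25.3 to 34.1%), and in the last 100 bp before the start the share was 6.15% against 7.99%. Nothing is read from these differences.

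**Figure D3:**
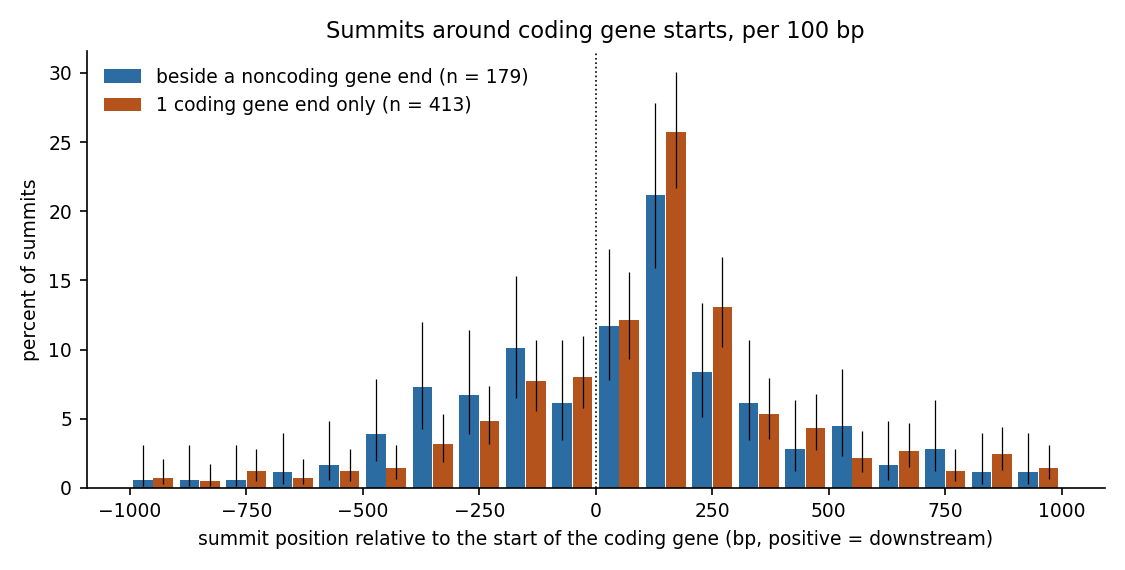
Share of summits (percent, bars) in steps of 100 bp around the coding start (bp, positive downstream) for 179 summits beside a noncoding gene end and 413 summits at 1 coding gene end only; lines are 95% Wilson intervals, counting error only. Both groups are fullest at 100 to 200 bp downstream (21.2% and 25.7%), and summits 100 bp or more upstream are 32.4% and 21.5%, a share that the choice of the first group by position bears on.

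The count was also made from the side of the genes, over all coding starts with matched strand and all peaks. Where the start of a noncoding gene lay within 1 kb on the opposite strand and no other coding gene end did, 141 of 1622 starts had a summit within 1 kb (8.69%, 7.42 to 10.2%). With any other noncoding end nearby it was 35 of 704 (4.97%, 3.60 to 6.84%). This class includes noncoding genes whose strand was not matched. Some of them may start on the opposite strand, so it is not purely another arrangement. With another coding gene end nearby it was 352 of 3137 (11.2%, 10.2 to 12.4%), and with no other gene end 398 of 10349 (3.85%, 3.49 to 4.23%). A summit near several coding starts counts for each of them. Starts beside another coding gene end are therefore not independent, and the interval of their share is too narrow. Over all 15812 coding starts it was 5.86%. The interval for starts beside an opposite noncoding start thus does not overlap that for starts with no neighbour. By kind of neighbour the share was 9.84% (7.26 to 13.2%, n = 386) for divergent transcripts, 10.3% (7.57 to 13.8%, n = 370) for antisense genes and 6.93% (5.33 to 8.98%, n = 750) for LOC genes. Starts beside an opposite noncoding start without a summit had a median GC content of 67.0% in their promoter sequence, against 62.7% over all coding promoters. The part of GC content in these shares was not tested.

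**Figure D4:**
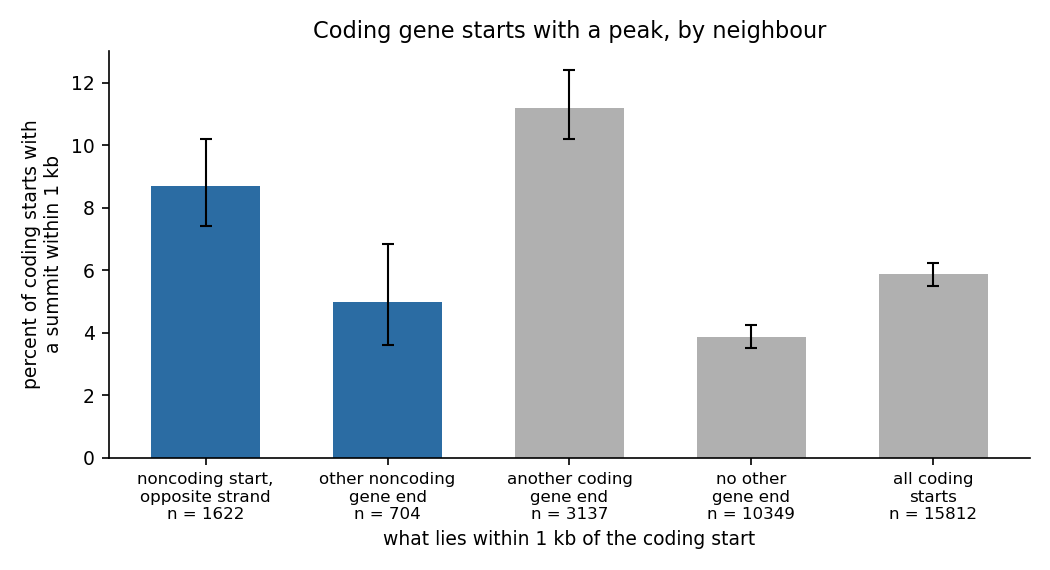
Percent of coding gene starts with a summit within 1 kb (bars, axis from 0), by what else lies within 1 kb of the start; lines are 95% Wilson intervals, counting error only. Starts beside an opposite noncoding start stand at 8.69%, those beside another coding gene end at 11.2% and those with no neighbour at 3.85%. The bar for other noncoding gene ends includes noncoding genes without a matched strand. A summit near several coding starts counts for each of them.

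Promoter sequences were then searched for the letters of known sites on both strands: CCGGAAGT and CCGGAA (ETS, the first containing the second), their core GGAA, the GATA factor site GATAA, the RUNX site TGTGGT, the cyclic AMP response element TGACGTCA, the CCAAT box (searched as CCAAT), the GC box GGGCGG and the palindromic site of NRF1. The coding promoters of these peaks gave 170 sequences. CCGGAA stood in 91 of them (53.5%, 46.0 to 60.9%), against 54.1% (49.1 to 58.9%) of 394 coding starts with 1 coding gene end only and 59.9% (54.4 to 65.1%) of 319 at peaks with several coding ends. Among 1481 coding starts that have an opposite noncoding start but no summit, the share was 27.4% (25.2 to 29.7%), and over all 15812 coding promoters 22.8% (22.2 to 23.5%). CCGGAAGT was found in 22.4% (16.7 to 29.2%), against 6.75% (5.58 to 8.15%) of the starts without a summit and 6.20% of all. GGAA alone was in 98.8%, against 95.1% of all coding promoters. The noncoding starts of these peaks gave a similar share: 78 of 158 (49.4%, 41.7 to 57.1%) held CCGGAA, against 10.5% of 11383 noncoding promoters. Those 158 held a median of 29 CpG dinucleotides, against 5 over all noncoding promoters, and the part of this difference was not tested. Where the starts are close together the 2 sequences of a pair overlap, so the same letters are partly counted in both.

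The ETS 6-mer was then set against the position of the summit. Where the coding promoter sequence held the summit, CCGGAA was present in 37 of 47 (78.7%, 65.1 to 88.0%), against 69 of 99 (69.7%) at 1 coding gene end only. Within 50 bp of the summit the 6-mer occurred 6.92 times per kb (exact Poisson interval 4.70 to 9.82), 3.89 times (2.27 to 6.23) at 50 to 100 bp, 4.77 times (3.54 to 6.29) at 100 to 200 bp and 2.11 times (1.51 to 2.88) at 200 to 400 bp. The 8-mer CCGGAAGT occurred 1.35 (0.495 to 2.94), 1.84 (0.796 to 3.63), 1.44 (0.807 to 2.38) and 0.637 (0.329 to 1.11) times per kb in these 4 steps. The first 3 values rest on 6, 8 and 15 matches and their intervals overlap, so their order cannot be told. At 1 coding gene end only, the 8-mer occurred 1.72, 1.28, 1.46 and 0.3 times per kb. The GC box had 4.91 per kb (3.08 to 7.43) within 50 bp and 7.29 (6.13 to 8.61) at 200 to 400 bp. Peaks at 1 coding gene end only gave 6.94 per kb for the 6-mer within 50 bp and 1.88 at 200 to 400 bp. Only the 300 bp promoter sequences were searched, so the steps draw on different peaks and on different places in the promoter. Distance from the summit is not separated from these. The promoters with the summit inside need not be those of the strongest peaks, and no test was made.

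Sites of other blood factors were not more frequent. GATAA stood in 11.8% (7.75 to 17.5%) of the 170 coding promoters, against 13.6% of the starts beside an opposite noncoding start without a summit and 18.2% (17.6 to 18.8%) of all coding promoters, and TGTGGT in 9.41% (5.88 to 14.7%) against 10.8%. CCAAT was in 37.6%, against 36.3% of all, and TGACGTCA in 2.94% against 2.59%. The GC box was in 80.6% (74.0 to 85.8%), against 70.6% (68.2 to 72.8%) of the starts beside an opposite noncoding start without a summit and 58.5% of all. The NRF1 site was in 0 of 170, which allows up to 2.21% (upper Wilson bound), against 1.76% of all coding promoters. Median GC content was 67.7%, against 67.0% without a summit and 62.7% over all. The part of base composition in these shares was not tested.

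**Figure D5:**
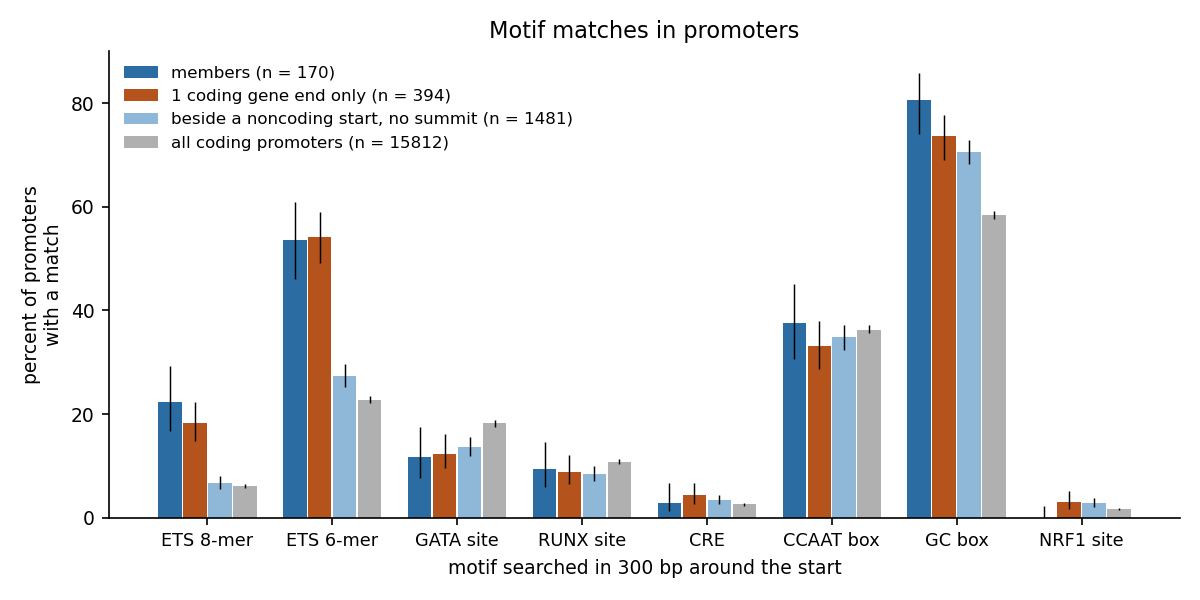
Percent of promoter sequences with at least 1 match (bars, axis from 0; GGAA is left out) for 170 coding starts of these peaks, 394 at 1 coding gene end only, 1481 beside an opposite noncoding start without a summit, and all 15812; lines are 95% Wilson intervals. The ETS 6-mer CCGGAA is at 53.5%, 54.1%, 27.4% and 22.8% in this order, while GATAA is at 11.8% in the first and 18.2% in the last.

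MicroRNA genes were beside 17 of the peaks, 19 genes in all, and mature sequences were matched for 17 of those genes. MicroRNAs silence messenger RNAs through pairing of their seed, bases 2 to 8. The clearest case of a shared seed is the pair MIR497 and MIR195, next to each other on chromosome 17, so both are shown with the seed in capitals.
hsa-miR-497-5p: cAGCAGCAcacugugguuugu
hsa-miR-195-5p: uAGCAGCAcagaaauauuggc
Both carry the seed AGCAGCA of the miR-15 and miR-16 family, which is known to restrain cell cycle genes. The summit lay 454 bp from the end of MIR497 and 775 bp from that of MIR195, and 956 bp from the end of BACC1, the coding gene, in a peak whose fold was 5.14 and whose pileup was 14 fragments. The readthrough transcript RNASEK-C17orf49 was a further neighbour of this peak.

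The coding genes beside other short RNA genes were varied. POLR3D, which encodes an RNA polymerase III subunit, had a fold of 6.55 with its summit 56 bp from the gene's end and 40 bp from MIR320A. CCT2, a chaperonin subunit gene, had 6.31 beside MIR3913-1 and MIR3913-2, about 805 bp away. RACK1, which encodes a scaffold protein of the ribosome, had 6.11, 917 bp from SNORD95. The microRNA gene ends nearest to a summit were those of MIR5091, beside BOD1L1 (fold 5.46), and MIR320A. The BOD1L1 summit lay inside MIR5091, 37 bp from its start. BTBD1 (6.06), GPR108 (5.53), TRIM41 (5.53) and SBNO1 (5.51) completed the 12 of highest fold, with FKBP1A, PLEKHG2, ZBTB37 and BACC1 described above. Over the 16 peaks whose nearest noncoding gene was a short RNA, the median fold was 5.30 (2.99 to 11.2). ZFP36, a neighbour of PLEKHG2 that encodes the mRNA decay factor tristetraprolin, was the lowest, with 2.99 at its stop, 479 bp from MIR4530.

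Long noncoding RNAs with names of their own were the neighbours at BARD1 beside SNHG31 (fold 5.46), RIPK2 beside PARAIL (5.19), AZIN1 beside MAILR (4.37 and 4.35), SEC14L1 beside SNHG20 (3.79), CDK10 beside LINC02166 (2.73) and RIC1 beside INCR1 (2.28). BARD1 encodes the partner of BRCA1 and RIPK2 a kinase of NOD receptor signalling. The values of these genes were seen before they were picked for mention. The RIC1 peak was the weakest of the 220 and stood on a background of 13.0 fragments. In all, 9 of the 220 peaks (4.09%) had a background above 7.04 fragments, among them MYL12B, CYP4V2, ELF2, RIC1 and ZNF625, whose background of 19.7 was the highest. At 1 coding gene end only it was 19 of 530 (3.58%).

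Of the 11 gene lists, 8 held at least 1 gene with such a peak. None of the 38 blood transcription factors, the 31 genes of the erythropoietin, JAK and STAT pathway or the 39 cell cycle and DNA replication or repair genes had a peak beside a noncoding gene end, while 5, 9 and 5 of them had a peak at an end in some other setting. At 1.08% of all coding genes, a list of this size with no such gene does not stand apart. A peak at an end of any kind was found for 5.86% of all coding genes. The lists were made with earlier results of these data known, and no list was tested against that share. Of 27 ETS genes, 7 had a peak at an end and ELF2 alone had one beside a noncoding gene, at 2.65-fold enrichment where the local background was 8.45 fragments. Of the chromatin regulators it was KAT6A (3.37), which encodes a histone acetyltransferase, of 43, and of the ribosomal proteins and translation factors RPL8 (3.11) of 36. RPL10 (5.14), RPS21 (4.43) and EIF6 (5.55), which encode ribosomal proteins and a ribosome assembly factor, also had such peaks and are not on that list. They were picked for mention with their values known. U2AF1 (3.94) and SRSF5 (3.62) were the members among 36 genes of splicing and RNA binding, TIMM23 (4.39) among 37 mitochondrial genes and CFLAR among 25 of apoptosis. Over all lists together, 13 of 377 genes had such a peak (3.45%), against 1.08% of all coding genes, with no test made.

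At the edge of the 1 kb limit, FGFBP3 (995 bp, fold 2.74), AZIN1 (994 bp, 4.37) and BACC1 (956 bp, 5.14) were just inside. STAT6 (1025 bp, 5.14), CEP135 (1036 bp, 6.89) and CCNG2 (1046 bp, 6.19) were just outside. By chromosome, the share of such peaks among those at exactly 1 coding gene end ran from 1 of 15 on chromosome 22 (6.67%, 1.19 to 29.8%) to 12 of 28 on chromosome 4 (42.9%, 26.5 to 60.9%) and 2 of 4 on chromosome X, beside 29.3% (26.2 to 32.7%, 220 of 750) in all.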

How the data were processed

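ChIP-seq of the AM tag was made in F36P cells with AM-ERG or Vector, 1 library per group, from 10000000 cells fixed in 1% formaldehyde and digested with micrococcal nuclease for 20 minutes, per the labels' protocols. Bowtie2, MACS2 and deepTools and the build hg38 are named, per the submitters' processing notes, with no version or setting. The deposited file is a headerless peak list. Its columns hold the authors' score for each peak, their fold (ratio of the summit to its local background), their p-value and q-value (both as −log10) and how far the summit is from the peak's start. The largest q in the authors' deposited table was 0.0474. The sources used here do not give which library was called, or whether Vector served as control. Read depth is unknown, and 0 columns of other series were present.

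From the deposited fold and p, the whole-number pileup and local background in fragments were recovered, reading the fold as (pileup + 1)/(background + 1) and p as a Poisson tail. This returned p for all 1564 peaks within 0.001 in log10 (largest error 0.000599). Gene ends and biotypes came from RefSeq on GRCh38.p14, with 59098 genes on chromosomes 1 to 22 and X, 19974 of them protein-coding; the table has no strand or exons, so strand came from the RefSeq promoter and microRNA sequences, matched for 15812 coding and 12941 of 39124 noncoding genes. Exons, introns and UTRs were not separated. Distances are to the ends of the whole annotated gene. The start used for the promoter sequence differs from that end at some genes, such as CFLAR and ZBTB37. The recovery, the distances and the motif search were tested on simulated data.

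The members and gene lists were chosen with earlier results of these data known. Named genes followed a rule: the 20 of highest fold, the next 10 by q, up to 12 with a short RNA neighbour, genes of the lists, those at the limit, and the nearest and farthest divergent transcripts. The 10 sequences shown add SLC30A6. Exceptions are stated, and some genes under this rule are not reported here. Shares have 95% Wilson intervals and densities exact Poisson intervals, which cover counting error only; reads without molecular identifiers are not independent molecules. Alternatives covered the distance limit, the threshold, the neighbours counted, raised background and the peak interval. The software was matplotlib 3.10.9, SciPy 1.17.1, numpy 2.4.6 and pandas 2.3.3 under Python 3.11.15.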

Additional observations from a re-analysis of the deposited data

Results flagged for a closer look

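The comparisons by gene did not use 81 of the 1645 peaks (4.92%), those on sequences other than chromosomes 1 to 22 and X, and no list from Vector cells was analysed to set them against.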

How the results depend on the processing

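No paired analysis was possible because there is only 1 library in either group, without a replicate number. Of 53 alternatives, 40 moved a value by less than its counting interval or a count by less than 1.5 times, and 13 moved it further. Keeping the upper 50% of peaks by fold or by significance changes counts by construction, since fewer peaks remain. The number of peaks was 123 by fold, 106 by significance and 143 with LOC genes left out. The median fold was 5.78 by fold and 6.18 by significance, and the share of coding starts beside an opposite noncoding start with a summit was 4.99% and 3.95%. The share among peaks at exactly 1 coding gene end was 19.1% without LOC genes, 35.9% at a limit of 2 kb and 21.8% at 500 bp, by construction. The share with a divergent transcript was 32.9% without LOC genes. The ETS 6-mer share was 63.4% by significance and 78.7% where the sequence held the summit, and the cause of these 2 was not tested. The share of start-to-start pairs stayed between 85.7% and 89.0% in settings chosen after seeing the data, and leaving out readthrough transcripts, also chosen after seeing the data, left 218 peaks. Depth limits all values: how many weaker sites the list misses is unknown.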
